A study of Rattus norvegicus with 138 samples.

Results

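Sarcolipin (Sln) and 7 other genes of the calcium cycle of the myofibre were followed by RNA-Seq through volumetric muscle loss (VML), a surgical injury in which a plug of the rat tibialis anterior (TA) muscle is removed. The 8 genes are Sln, Pln, Atp2a1, Atp2a2, Ryr1, Casq1, Casq2 and Pvalb, out of 16181 gene symbols in the expression table. Sln was chosen by its high level in injured muscle without repair or running against control muscle, and the others were chosen by their function, with earlier results of these data known. The differences of that arm from control and from contralateral muscle are therefore given as a description, with no test. Ryr1, the calcium release channel, was not analysed here, which left 7 genes with values.

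All rats were Lewis rats, described by the study as inbred males. Control muscle was taken from both legs of sham rats at day 0, without running or repair (4 muscles from 2 rats). These rats carry another number series than all others, so that number series and control status cannot be told apart. The remaining rats received a VML injury on 1 side, and both the injured TA and the contralateral TA, labelled as without VML, were sampled at 3, 7, 14 or 28 days post injury (DPI). Rats had no repair or received a minced muscle graft (MMG), small pieces of muscle placed in the defect, and were labelled as running or not running, which gives 4 arms. Total RNA came from homogenized TA tissue, and fewer myofibres and less RNA per myofibre cannot be told apart in these bulk samples.

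Of the libraries that could be placed in a group, 116 had at least 7000 symbols above 1 TPM, a unit of transcript abundance scaled for transcript length and library. They came from 114 muscles of 78 rats: 4 control, 34 contralateral and 76 injured muscles in 31 groups of day, repair and running. The retained libraries had 7866 to 10948 symbols above 1 TPM and the 13 left out had 901 to 5712. A further 9 libraries could not be placed in a group from their labels, among them 8 libraries (28 DPI, running) with a title that contradicts the injury label. Read depth is unknown from TPM values. The scaling for length lets levels of different genes be set side by side. In 34 rats both muscles were retained. No contralateral muscle of running rats could be placed at 28 DPI, and each running arm had 2 injured muscles then.

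Contraction starts when calcium leaves the sarcoplasmic reticulum through the ryanodine receptor, and relaxation follows when the SERCA pumps carry it back. Atp2a1 encodes SERCA1, the pump of fast fibres, and Atp2a2 encodes SERCA2, the pump of slow fibres, heart and, in another splice form, most other cells. Sarcolipin and phospholamban (Pln) are small membrane proteins that inhibit SERCA. Calsequestrin binds calcium inside the reticulum, Casq1 being the main skeletal form and Casq2 the cardiac and slow fibre form, and parvalbumin (Pvalb) binds it in the cytosol of fast fibres. The rat TA is a fast muscle. Its fast fibre genes were abundant in control muscle, where 15 fast myofibre genes summed to 257049 to 322896 TPM and 8 slow myofibre genes to 1788 to 2593 TPM.

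Sln was at 14.8, 17.3, 21.4 and 32.3 TPM in the 4 control muscles. In injured muscle without repair or running it averaged 3543 ± 411 TPM at 3 DPI (SD, n = 3), 4945 ± 1245 at 7 DPI (n = 8), 3038 ± 902 at 14 DPI (n = 4) and 3523 ± 1498 at 28 DPI (n = 4). On the log2(TPM + 1) scale these levels were 7.35, 7.79, 7.10 and 7.27 above control, at most a 222-fold difference. This is the difference Sln was selected on. No injured muscle of that arm overlapped the control muscles.

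The other 3 arms did not enter that choice. With a graft and no running, Sln averaged 2746 ± 890 TPM at 3 DPI (n = 7), 4919 ± 1278 at 7 DPI (n = 8), 3994 ± 1520.2 at 14 DPI (n = 4) and 4309.8 ± 2931 at 28 DPI (n = 4). With running and no repair it averaged 2950.4 ± 773 TPM (n = 8), 3606 ± 1356 (n = 4), 5357 ± 2981 (n = 4) and 1097 ± 583 (n = 2) on the same days. With both running and a graft the means were 3209.9 ± 1024 TPM (n = 6), 4960.1 ± 2318 (n = 4) and 4093 ± 1314 (n = 4), and the 2 muscles of 28 DPI had 878 and 1576 TPM. In order of their means, 14 of the 16 injured groups lay between 2746 and 5357 TPM, with SDs wider than the steps between neighbours, and the running groups of 28 DPI were lowest.

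Contralateral muscle had far less Sln, and its level was highest early. Over all arms its lowest, median and highest values were 72.9, 156 and 283 TPM at 3 DPI (n = 8), and 50.1, 74.2 and 162 TPM at 7 DPI (n = 14). At 14 DPI the mean was 34.1 ± 30.4 TPM (SD, n = 8), from 16.1 TPM upwards. At 28 DPI the 4 values were 16.1, 20.6, 27.7 and 53.8 TPM. Every contralateral muscle of 3 and 7 DPI was above the highest control muscle, while those of 14 and 28 DPI overlapped it.

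**Figure D1:**
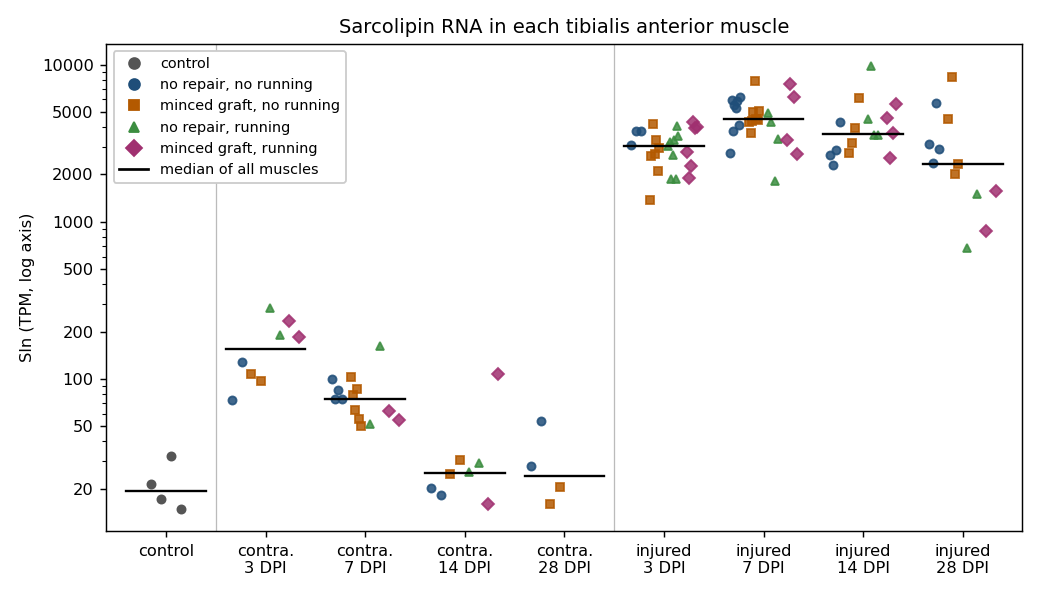
Sln in each retained TA muscle (TPM, log axis), by control, contralateral and injured muscle and by days post injury, with symbols for the 4 arms and a line at the median of all muscles of the column. The 76 injured muscles lie between 684 and 9783 TPM and all other muscles at or below 283 TPM, and the 4 running muscles at 28 DPI are the lowest of the injured muscles of that day.

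Injured and contralateral muscle were then compared in the 3 arms that had not chosen Sln, at 28 DPI in the grafted, non-running arm alone. A gene was called at a Benjamini-Hochberg adjusted p under 0.05 (limma) with a log2 fold change beyond 1, over 11328 genes tested, and calls were common. At 3 DPI 42.7% of all genes were called (36.1% higher, 6.57% lower), at 7 DPI 44.7% (41.1% higher, 3.55% lower), at 14 DPI 25.5% (24.9% higher, 0.583% lower) and at 28 DPI 19.1% (18.8% higher, 0.300% lower). The median of all genes was itself 0.63, 0.81, 0.56 and 0.49 higher in injured muscle on those days (log2). Rescaling each muscle by median-of-ratios size factors took these medians to between 0.03 and 0.06, and the higher share of all calls from 84.6% to 58.9% at 3 DPI, 92.1% to 60.0% at 7 DPI, 97.7% to 67.0% at 14 DPI and 98.4% to 74.4% at 28 DPI. With size factors 22%, 20.4%, 12.8% and 9.65% of all genes were called higher and 15.4%, 13.6%, 6.29% and 3.32% lower on the 4 days. Of the 7 calcium handling genes, 5, 6, 3 and 3 were called on the 4 days.

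Sln rose in injured muscle on every day. Its log2 fold change was 4.05 ± 0.245 at 3 DPI (SE, adjusted p = 7.58e-28), 5.84 ± 0.236 at 7 DPI (adjusted p = 2.35e-39), 7.00 ± 0.265 at 14 DPI (adjusted p = 8.16e-40) and 7.57 ± 0.458 at 28 DPI (adjusted p = 1.59e-24). These differences run from 16.6-fold to 190-fold. Within the 24 rats of these arms that had both muscles, Sln was higher on the injured side in 24, by 3.36 to 8.60 on the log2 scale.

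The difference widened between 3 and 14 DPI by 2.94 ± 0.361 (limma, adjusted p = 2.90e-11). That test, added after the data were seen, called a change in the injury difference for 19.1% of all genes and 4 of the 7. The rise of Sln became larger, while the falls of Atp2a1, Casq1 and Pvalb became smaller. For Sln, injured muscle differed by 0.56 between 3 and 7 DPI and by -0.01 between 7 and 14 DPI, neither passing both limits, while the contralateral median went from 156 to 25.3 TPM over the same days.

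Pln, the other inhibitor, was near the lower end of what was tested. Its 4 control values were 1.99, 2.43, 2.78 and 3.11 TPM. In injured muscle its lowest, median and highest values were 1.39, 2.16 and 3.49 TPM at 3 DPI (n = 24), 2.42, 3.69 and 6.00 at 7 DPI (n = 24), 2.92, 3.73 and 6.03 at 14 DPI (n = 16) and 3.30, 4.63 and 6.29 at 28 DPI (n = 12). Against contralateral muscle its log2 differences were -0.33, 0.25, 0.66 and 0.94 on the 4 days, and it was called on none of them. At 28 DPI the call changed with a pseudocount of 0.1 TPM (1.18) and when 1 of the rats was left out (1.08), both past the fold limit. Within rats it was lower on the injured side in 8 of 8 at 3 DPI and higher in 26 of 26 later. Sln was 6.23 to 13.3 times as abundant as Pln in control muscle and 178 to 2616 times in injured muscle.

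Atp2a1, the fast pump, fell by 2.89 ± 0.170 (log2) at 3 DPI (limma, adjusted p = 1.22e-28) and by 1.88 ± 0.164 at 7 DPI (adjusted p = 9.68e-19). It was at 17283, 17507, 19071 and 22484 TPM in control muscle. The injured muscles ran from 1206 to 5100.3 TPM at 3 DPI around a median of 2317, from 2088 to 8463 at 7 DPI (median 4771), from 6169 to 9958 at 14 DPI (median 8749.8) and from 7210.4 to 13977 at 28 DPI (median 12052). No injured muscle reached the lowest control muscle, and within rats the injured side was lower in 34 of 34. At 14 and 28 DPI the differences from contralateral muscle were -0.91 (adjusted p = 6.14e-06) and -0.74 (adjusted p = 0.0369), within the fold limit. With size factors they were -1.61 and -1.34 and passed it.

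Atp2a2, the slow and general pump, was at 64.6 to 80.6 TPM in control muscle. Its contralateral means were 120 ± 13.9, 110 ± 24, 89.4 ± 29 and 90.9 ± 27.7 TPM (SD, n = 8, 14, 8 and 4) at 3, 7, 14 and 28 DPI, and its medians in injured muscle were 178, 236, 168 and 188 TPM, and all 76 injured muscles (100 to 313 TPM) were above the control muscles. Against contralateral muscle it was 0.61 higher at 3 DPI, under the fold limit, and rose on the 3 later days by 1.11 ± 0.147, 1.09 ± 0.165 and 1.15 ± 0.286 (limma, adjusted p = 5.90e-11, 7.38e-09 and 3.98e-04). With size factors the same differences were 0.21, 0.40 and 0.56, when none was called, so that Atp2a2 stood little above the shift of all genes. The call at 14 DPI was also lost when either of 2 rats was left out, the lowest value being 0.92, and that at 28 DPI when the low-complexity libraries were kept, with the difference still at 1.15.

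Both pumps together were mostly Atp2a1 in every muscle. The Atp2a2 share of their TPM was 0.320% to 0.421% in control muscle and 0.312% to 1.11% in contralateral muscle. In injured muscle its lowest, median and highest values were 2.80%, 7.55% and 12.2% at 3 DPI and 0.824%, 1.5% and 2.64% at 28 DPI. The share is a ratio within each library, so the scaling of libraries does not enter it. Sln stood at 0.0655 to 0.184 TPM per 100 TPM of both pumps in control muscle, and in injured muscle at 35.7 to 258 TPM per 100 at 3 DPI and 5.06 to 113 at 28 DPI.

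Casq1 and Casq2 went in opposite directions. Casq1 was at 2874, 3016, 3059 and 3411 TPM in control muscle and had medians of 442, 1571, 3677 and 3282 TPM in injured muscle at 3, 7, 14 and 28 DPI, against contralateral medians of 2025, 3699, 4315 and 2955 TPM. It fell by 2.24 ± 0.174 at 3 DPI and by 1.39 ± 0.168 at 7 DPI against contralateral muscle (limma, adjusted p = 2.84e-21 and 2.52e-12). At 14 and 28 DPI its differences were -0.32 (95% interval -0.69 to 0.06) and 0.03 (-0.62 to 0.67), and neither was called. With size factors the value of 14 DPI was -1.02 and was called.

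Casq2 was at 6.63, 9.77, 11.1 and 11.1 TPM in control muscle. Its medians in injured muscle were 109, 179, 124 and 65.8 TPM on the 4 days, and the lowest of the 76 injured muscles, at 28.3 TPM, overlapped the contralateral range of 7.87 to 32 TPM through a single contralateral value at 3 DPI. The log2 fold changes were 2.31 ± 0.207, 3.30 ± 0.199, 3.24 ± 0.223 and 2.69 ± 0.387, all called (limma, adjusted p from 5.81e-28 to 1.37e-08), and within rats the injured side was higher in 34 of 34. The Casq2 share of both calsequestrins had a median of 0.342% in control muscle, and of 19.6%, 10.7%, 3.22% and 1.78% in injured muscle in order of day. Of 5 cardiac markers measured beside this cardiac form, Nppa was listed at 0 in all control and contralateral muscles and reached 8.93 TPM in injured muscle, Tnni3 stayed at or below 2.16 TPM and Mybpc3 at or below 0.410 TPM. Myh6 had medians of 7.08 TPM in control and 2.61 TPM in injured muscle, and Tnnt2, which immature skeletal fibres also use, went from 1.17 to 222 TPM.

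**Figure D2:**
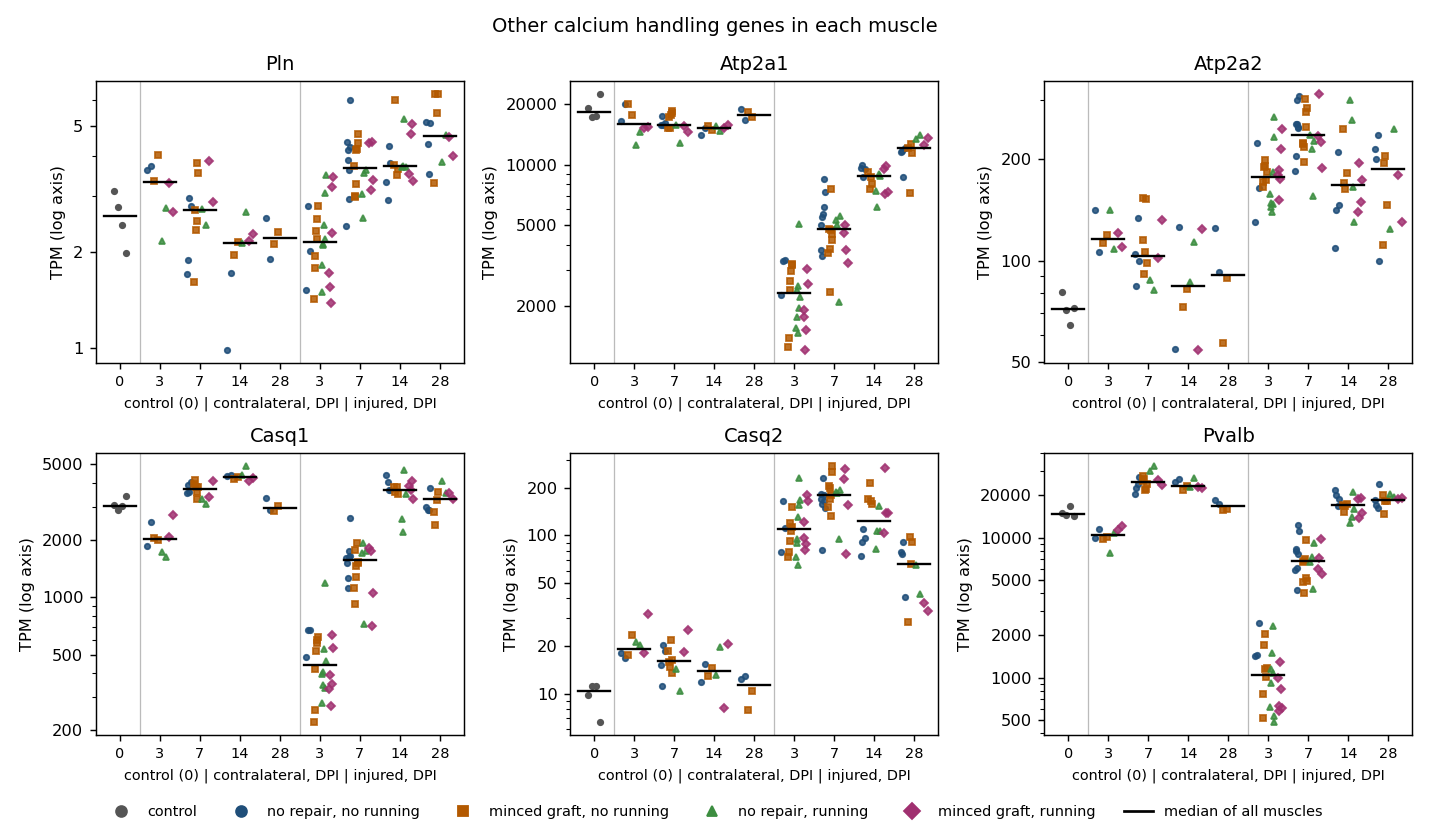
The other 6 genes in each retained muscle (TPM, log axes that differ between panels), by control, contralateral and injured muscle and by days post injury, with symbols for the arms and a line at the median. Atp2a1, Casq1 and Pvalb are lowest in injured muscle at 3 DPI and higher on each later day up to 14 DPI, Casq2 lies at 28.3 to 275 TPM in injured muscle, and Pln stays at or below 6.29 TPM.

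Pvalb had the deepest fall. Its 4 control values were 14240.1, 14617, 15040.3 and 16791 TPM. In injured muscle its lowest, median and highest values were 482, 1039.5 and 2451 TPM at 3 DPI and 4002, 6751 and 12369 TPM at 7 DPI. They were 12699, 17049.5 and 22035 TPM at 14 DPI and 14769.7, 18696 and 24008 TPM at 28 DPI. Against contralateral muscle it fell by 3.45 ± 0.186 at 3 DPI and by 2.04 ± 0.179 at 7 DPI (limma, adjusted p = 3.45e-31 and 1.15e-18), a 10.9-fold and a 4.12-fold difference. At 14 DPI the difference was -0.52, under the fold limit, and -1.22 and called with size factors. At 28 DPI it was 0.16 (95% interval -0.53 to 0.85). Contralateral Pvalb varied by day as well, with medians of 10407, 24829, 23341 and 16742 TPM in order of day.

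**Figure D3:**
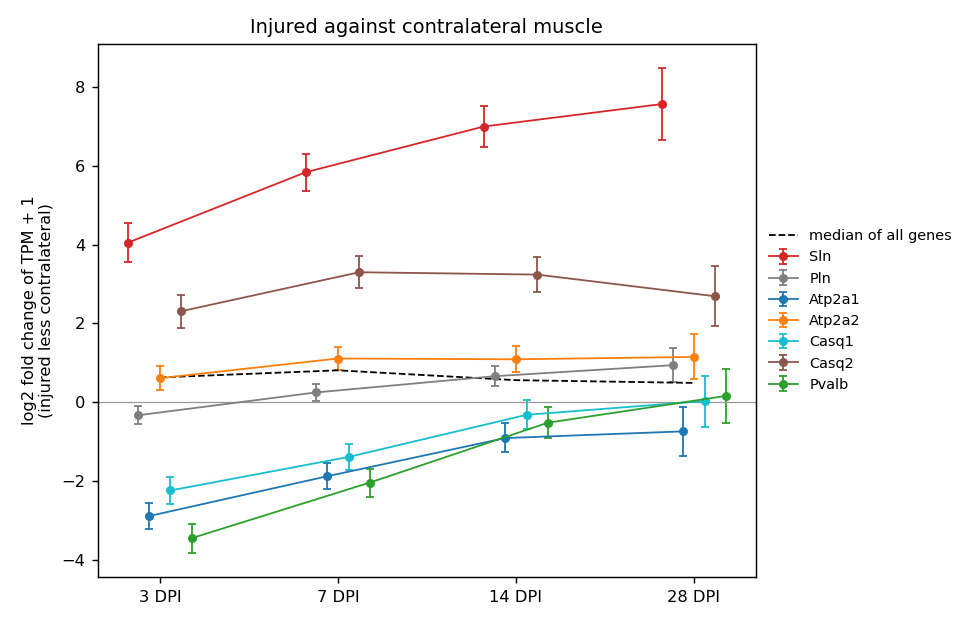
Log2 fold change of TPM + 1, injured less contralateral muscle, for the 7 genes by day post injury, averaged over the 3 arms that did not choose Sln (at 28 DPI the grafted, non-running arm alone). Bars are 95% intervals and the dashed line is the median of all genes tested. Sln goes from 4.05 to 7.57, Casq2 stays between 2.31 and 3.30, and Atp2a1, Casq1 and Pvalb go from between -3.45 and -2.24 at 3 DPI to between -0.74 and 0.16 at 28 DPI.

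Fast fibre genes fell with the fast members. All 15 genes of the fast myofibre list fell at 3 DPI, 14 fell at 7 DPI, 2 fell at 14 DPI and 0 were called at 28 DPI (limma), with list medians of -2.24, -1.79, -0.66 and -0.51. With size factors 13 of the 15 fell at 14 DPI and 10 at 28 DPI, when 6.29% and 3.32% of all genes fell. Set against that median, Atp2a1 differed by -0.65, -0.09, -0.25 and -0.23, Casq1 by 0.00, 0.41, 0.34 and 0.54, and Pvalb by -1.21, -0.25, 0.13 and 0.67 over the 4 days. Casq2 was 4.55, 5.1, 3.89 and 3.20 above it and Sln was 6.30 to 8.08 above it. Of the 8 slow myofibre genes, 5 fell and 1 rose at 3 DPI, 3 fell and 2 rose at 7 DPI, 2 rose at 14 DPI and 1 rose at 28 DPI. Of all genes 36.1%, 41.1%, 24.9% and 18.8% rose and 6.57%, 3.55%, 0.583% and 0.300% fell on the 4 days. With size factors 6 slow genes fell and 0 rose at 3 DPI, and 3 fell and 1 rose at 7 DPI. At 14 DPI 2 then fell and 1 rose, and at 28 DPI 0 fell and 1 rose. The 12 genes of regenerating and denervated fibres include embryonic myosin and acetylcholine receptor subunits. Beside the same shares of all genes, they rose in 11, 12, 12 and 12 cases, with medians of 3.25, 5.1, 4.24 and 3.51. With size factors 10 rose and 1 fell at 3 DPI and 12 rose on each later day, with medians of 2.60, 4.29, 3.74 and 3.12.

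Other cell types moved with injury as well. Over injured muscle, 6 macrophage and leukocyte markers summed to 3381 to 6497 TPM at 3 DPI and 205 to 1210.4 TPM at 28 DPI, against 13 to 31.9 TPM in control muscle. In the same way 6 fibroblast markers summed to 5949 to 23920.3 TPM at 7 DPI against 65.5 to 215 TPM in control muscle, 4 endothelial markers to 189 to 340 against 42.3 to 72.5 TPM, and 5 Schwann cell markers to 57.8 to 220 against 12.5 to 23.2 TPM. Of the 4 Schwann cell markers tested, 2 rose and 1 fell against contralateral muscle at 7 DPI, and 1 rose and 1 fell at 3 DPI. With size factors 1 rose and 1 fell on each of these days, with medians of -0.28 at 3 DPI and 0.31 at 7 DPI. Of the 4 endothelial markers 0 were then called on either day, with medians of 0.61 and 0.57. The sums of the 5 smooth muscle markers overlapped, at 1998 to 4089.9 TPM in injured muscle at 7 DPI and 3695 to 5618 TPM in control muscle, while 3 of the 5 rose and 0 fell against contralateral muscle at 7 DPI (limma, list median 1.86). The part of these cells in the fall of Atp2a1, Casq1 and Pvalb was not tested.

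Atp2a1, Casq1 and Pvalb followed each other across muscles, while Casq2 did not follow them, and their promoters are shown for that contrast. Over the 114 muscles the Pearson correlation of log2(TPM + 1) was 0.964 for Casq1 with Pvalb, 0.909 for Atp2a1 with Casq1 and 0.897 for Atp2a1 with Pvalb, and -0.449 for Casq1 with Casq2. These muscles share the injury, so the correlations are a description. RefSeq promoters (build GRCr8) matched 6 of the 8 genes by symbol, all but Sln and Ryr1. The 250 bases before the annotated start are printed 5′ to 3′ on the gene's strand for Atp2a1 (chr1:190475411-190475660, minus strand), Casq1 (chr13:87212711-87212960, minus strand), Pvalb (chr7:111666290-111666539, minus strand) and Casq2 (chr2:192214306-192214555, plus strand). Capitals mark every E-box, CANNTG, the letters that myogenic factors of the MyoD family bind, and every MEF2 motif, both searched on both strands.
Atp2a1: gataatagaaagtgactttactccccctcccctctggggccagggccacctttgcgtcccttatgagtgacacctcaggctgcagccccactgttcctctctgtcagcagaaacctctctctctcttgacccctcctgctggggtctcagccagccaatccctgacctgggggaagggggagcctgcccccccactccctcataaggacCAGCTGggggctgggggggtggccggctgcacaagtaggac
Casq1: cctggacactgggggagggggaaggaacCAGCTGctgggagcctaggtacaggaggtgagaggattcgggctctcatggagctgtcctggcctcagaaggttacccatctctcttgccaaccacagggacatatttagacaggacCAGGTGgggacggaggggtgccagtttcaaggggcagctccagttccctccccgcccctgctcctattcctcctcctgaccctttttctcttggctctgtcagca
Pvalb: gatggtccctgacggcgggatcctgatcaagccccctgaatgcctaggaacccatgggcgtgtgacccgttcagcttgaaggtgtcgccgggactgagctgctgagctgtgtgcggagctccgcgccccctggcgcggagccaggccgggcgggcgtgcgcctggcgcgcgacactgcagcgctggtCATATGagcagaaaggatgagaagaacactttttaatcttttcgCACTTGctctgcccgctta
Casq2: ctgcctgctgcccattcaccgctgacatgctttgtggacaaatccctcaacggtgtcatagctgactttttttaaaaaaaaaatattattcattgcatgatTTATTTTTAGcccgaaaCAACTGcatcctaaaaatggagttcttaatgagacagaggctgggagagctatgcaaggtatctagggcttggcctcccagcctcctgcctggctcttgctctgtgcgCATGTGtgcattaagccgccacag

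Atp2a1 held 1 E-box in this window and Casq1, Pvalb and Casq2 held 2 each. At least 1 E-box stood in 65.5% of all 33469 promoter windows of this length. The E-box of Atp2a1 and 1 of those of Casq1 read CAGCTG, which 12% of all windows held and which is counted among the CANNTG matches too. Casq2 alone of the 6 genes with an entry held the MEF2 motif, which stood in 2.96% of all windows. A match of letters is a description and not a binding site.

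**Figure D4:**
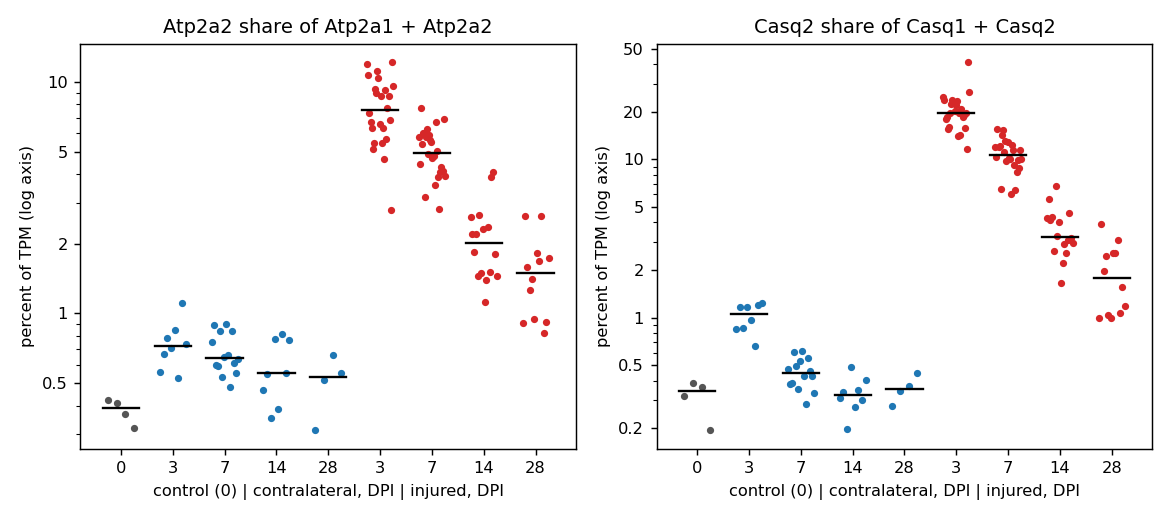
Share of Atp2a2 in the summed TPM of both SERCA genes (left) and share of Casq2 in the summed TPM of both calsequestrin genes (right), in percent on log axes, in each control (grey), contralateral (blue) and injured (red) muscle by day post injury, with lines at medians. Both medians are highest in injured muscle at 3 DPI, at 7.55% and 19.6%, and lower on each later day.

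Within injured muscle, successive days were compared over the same 3 arms, and neighbouring comparisons share the day between them. From 3 to 7 DPI 7.32% of all genes were called (2.82% higher, 4.49% lower) and 2 of the 7 were, Pvalb rising by 2.79 ± 0.137 (limma, adjusted p = 4.62e-32) and Casq1 by 1.67 ± 0.129 (adjusted p = 1.23e-20). Contralateral muscle of all arms was also higher at 7 DPI in both genes, which was not tested. Its Pvalb lay at 7790.5 to 12159.6 TPM at 3 DPI and at 20342 to 32534 TPM at 7 DPI. Its Casq1 lay at 1624 to 2721 TPM and at 3082 to 4150.1 TPM. From 7 to 14 DPI 10.4% of all genes were called in injured muscle (1.03% higher, 9.33% lower) and the same 2 genes rose again, Casq1 by 1.36 ± 0.147 (limma, adjusted p = 1.03e-13) and Pvalb by 1.34 ± 0.156 (adjusted p = 2.02e-12). The rats of 14 DPI carry rat numbers apart from those of 7 DPI, so that day and rat range cannot be told apart for this step. Atp2a1 gained 0.98 and then 0.97, just within the fold limit both times, and 1.08 and 1.33 with size factors, which passed it. With size factors the higher share of all calls moved from 9.97% to 48.0% between 7 and 14 DPI and from 18.3% to 30.5% between 14 and 28 DPI.

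From 14 to 28 DPI 2.75% were called (0.503% higher, 2.25% lower), and of the 7 genes Casq2 and Sln were. Casq2 fell by 1.52 ± 0.211 (limma, adjusted p = 1.08e-08), from a median of 124 to 65.8 TPM, and its mean was lower at 28 DPI in each of the 4 arms. Sln fell by 1.35 ± 0.250 (adjusted p = 6.97e-06) as the average of the 3 arms, 2 of which are running arms, and the arms did not move alike. Its mean went from 5357 to 1097 TPM with running alone and from 4093 to 1227 TPM with running and a graft. Without running it went from 3994 to 4309.8 TPM with a graft and from 3038 to 3523 TPM without repair. All 12 regenerating and denervated fibre genes fell over the same step, by a median of 1.52. The rats of 14 DPI and of 28 DPI carry separate ranges of rat numbers, so that day and rat range cannot be told apart for this step.

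At 3 and 7 DPI each day held 2 ranges of rat numbers, and the earlier step could be read within each. Injured Pvalb went from a mean of 1199 to 6517 TPM in the lower rat numbers and from 1000.4 to 7984 TPM in the higher ones. Casq1 went from 413 to 1389.8 TPM and from 613 to 1739 TPM, and Sln from 2931 to 4357 TPM and from 3226 to 5432 TPM. In the higher numbers day goes with arm: 6 of the 8 muscles at 3 DPI were of running rats, while all 8 at 7 DPI were of non-running rats, 4 of them from the arm that chose Sln. Among grafted, non-running rats alone, the higher numbers had means at 3 DPI (n = 2) and 7 DPI (n = 4) of 1086 and 6664 TPM for Pvalb, 609 and 1564 TPM for Casq1 and 2526 and 5493 TPM for Sln.

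In contralateral muscle, 14 and 28 DPI were compared with 3 and 7 DPI. Of all genes 0.415% were called (0.0177% higher, 0.397% lower), and Sln was the only one of the 7. It fell by 1.90 ± 0.196 (limma, adjusted p = 1.81e-13), a 3.73-fold difference. The other 6 lay between -0.48 for Casq2 and 0.51 for Casq1, within the fold limit. This comparison pools days that differed for some of them. In the lower rat numbers contralateral Pvalb averaged 10398 TPM at 3 DPI and 27488 TPM at 7 DPI, and Casq1 2071 and 3662 TPM. That difference between 3 and 7 DPI was not tested. Fibroblast markers summed to 534 to 1302 TPM in contralateral muscle at 3 DPI and 297 to 365 TPM at 28 DPI, and leukocyte markers to 61.6 to 173 TPM and 41.3 to 49.6 TPM. Their part in the contralateral change of Sln was not tested. At 3 DPI the 4 contralateral muscles of running rats had 184 to 283 TPM of Sln and the 4 of non-running rats 72.9 TPM or more, all below the running rats, a difference noticed in the values and not tested. Day and rat range cannot be told apart here for 14 and 28 DPI.

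Whether the graft changed these genes was asked in injured muscle, averaged over running and non-running rats. The non-repaired, non-running muscles that chose Sln are part of this comparison. Of all genes, 0%, 0.00883%, 0.0353% and 0.0177% were called at 3, 7, 14 and 28 DPI, and none of the 7 was called on any day (limma, 0 of 7). At an unadjusted p under 0.05 there were 1, 0, 1 and 0 of them, Pvalb at 3 DPI (-0.45, adjusted p = 0.212) and Casq2 at 14 DPI (0.70, adjusted p = 0.346). For Sln the averaged differences of -0.17, 0.22, 0.03 and 0.17 are a description, and the test is that of running rats alone. There the graft differences of Sln were 0.10 (95% interval -0.47 to 0.67), 0.43 (-0.32 to 1.17), -0.31 (-1.06 to 0.43) and 0.21 (-0.84 to 1.26) on the 4 days, none called (limma, adjusted p = 1.00, 0.661, 1.00 and 1.00), and on the 3 later days the interval reached past the fold limit. For Casq2 at 14 DPI the interval of the averaged difference reached 1.14.

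Running was compared with no running in injured muscle in the same way, averaged over repair. The non-repaired, non-running muscles that chose Sln are again part of it, so that for Sln the average over repair is a description and the test is that of grafted rats alone. The shares of all genes called were 0.0177%, 0%, 0% and 0.309% on the 4 days. Of the 7 genes 0 were called at 3, 7 and 14 DPI (limma), with 2, 0 and 0 at an unadjusted p under 0.05. Pvalb at 3 DPI came nearest, at -0.67 ± 0.175 (adjusted p = 0.0393), within the fold limit. In grafted rats alone Sln differed by 0.23 (95% interval -0.36 to 0.82), -0.08 (-0.72 to 0.56) and 0.05 (-0.70 to 0.79) on these days, none called (limma, adjusted p = 1.00 on each). Averaged over repair the values were -0.04, -0.29 and 0.38.

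At 28 DPI the lowest Sln values were those of running rats. The 4 running muscles had 684, 878, 1509 and 1576 TPM. The 8 non-running muscles had a lowest value of 2016, a median of 3004 and a highest value of 8374 TPM, so the groups did not overlap. In grafted rats alone, which did not choose Sln, the difference was -1.63 ± 0.458 and was not called (limma, adjusted p = 0.156). Averaged over repair it was -1.67 ± 0.324, the same as 3.18-fold lower. It passed both limits but is a description, since 4 of its 8 non-running muscles came from the arm that chose Sln. Casq2 was next at -0.61 (adjusted p = 0.294), and the other 5 lay between -0.15 for Pln and 0.32 for Atp2a1. In a comparison added after the data were seen, the running difference at 28 DPI less its mean over 3, 7 and 14 DPI was -1.70 in grafted rats alone (limma, adjusted p = 0.498), not called. Averaged over repair it was -1.69 ± 0.353, a description for the same reason, when 0.221% of all genes were called.

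The value averaged over repair also rests on few muscles. Without the running rat at 684 TPM it was -1.39 (adjusted p = 0.103) and without the one at 878 TPM -1.46 (adjusted p = 0.0917), both by limma. Of the 12 regenerating and denervated fibre genes, 7 were also lower in running rats at 28 DPI, with a list median of -1.19 against -0.09 for all genes, and they summed to 489 to 935 TPM in running and 1167 to 3419 TPM in non-running rats. These calls became 0 of 12 in grafted rats alone (list median -1.35), in a fit limited to the groups compared (-1.19) and with the low-complexity libraries kept (-1.19). Fast myofibre genes summed to 226408 to 243749 and 157922 to 229599 TPM, and 0 of 15 were called (limma). Fibroblast markers summed to 1948 to 2871 and 1876 to 4426 TPM and macrophage markers to 239 to 1210.4 and 205 to 734 TPM, both overlapping. The part of these differences in the Sln value was not tested.

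A wider list of 62 calcium handling genes, with 55 tested, was counted beside the 7. At 3 DPI 11 of them rose and 24 (43.6%) fell against contralateral muscle, when 6.57% of all genes fell. At 7 DPI 11 rose and 16 fell, at 14 DPI 12 rose and 0 fell, and at 28 DPI 4 rose and 0 fell (limma). The shares that rose, 20%, 20%, 21.8% and 7.27% on the 4 days, were below the 36.1%, 41.1%, 24.9% and 18.8% of all genes. The list medians were -0.77, -0.12, 0.07 and 0.13, below the medians of all genes given above. Size factors changed this balance to 8 higher and 30 lower, 6 and 27, 3 and 16, and 3 and 5, beside the shares of all genes with size factors given above.

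Outside the 7, the list genes named for the deepest falls were Slc8a3, Jph1 and Cacna1s at 3 DPI and Jph2, Camk2a and Jph1 at 7 DPI. Jph1, a junctophilin that holds both membranes together, fell by 2.25 at 3 DPI and by 1.61 at 7 DPI, from a contralateral median of 150 TPM to 32.2 TPM at 3 DPI. Cacna1s, the voltage sensor subunit of the L-type calcium channel, fell by 2.14 at 3 DPI, when its contralateral median was 383 TPM and its injured median 87.6 TPM. Slc8a3, a sodium and calcium exchanger, fell by 2.25 at 3 DPI, and Jph2 fell by 2.08 and Camk2a, a calmodulin-dependent kinase subunit, by 1.70 at 7 DPI. All of these were called by limma with adjusted p under the threshold, the weakest being Jph1 at 7 DPI (5.51e-15).

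Those named for the highest rises were Fkbp1b, Atp2b4, Nfatc4 and Rcan1. Fkbp1b, an immunophilin that binds ryanodine receptors, was listed at 0 in all 4 control muscles and had a contralateral median of 0.540 TPM and an injured median of 8.83 TPM at 3 DPI. Its log2 fold changes were 2.72, 3.12, 2.04 and 1.32 on the 4 days with the pseudocount of 1 TPM and 4.11, 4.98, 3.67 and 3.13 with 0.1 TPM. With 1 TPM it fell again by 1.05 from 7 to 14 DPI and by 1.14 from 14 to 28 DPI. Atp2b4, a calcium pump of the plasma membrane with a contralateral median of 1.85 TPM at 3 DPI, rose by 2.17, 2.11, 1.67 and 1.46. Nfatc4, a calcineurin-dependent transcription factor, rose by 1.80, 2.57, 1.84 and 1.53 on the 4 days. With the pseudocount of 0.1 TPM Atp2b4 rose by 2.63, 2.59, 2.21 and 1.91 and Nfatc4 by 2.32, 3.25, 2.53 and 2.20. Rcan1, a calcineurin regulator with a contralateral median of 55.1 TPM at 3 DPI, rose by 2.14 at 3 DPI and fell by 1.09 from 14 to 28 DPI. The values of Fkbp1b, Atp2b4 and Nfatc4 stayed called on these days with size factors, at 1.21 to 2.63, 1.08 to 1.59 and 1.22 to 1.91, while the fall of Fkbp1b from 7 to 14 DPI (-0.72) and that of Rcan1 (-0.94) did not.

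Between days in injured muscle the list gave 3 higher genes of the 55 from 3 to 7 DPI, 3 higher and 1 lower from 7 to 14 DPI, and 2 lower from 14 to 28 DPI. Of all genes 2.82%, 1.03% and 0.503% were higher and 4.49%, 9.33% and 2.25% lower over these steps. Mrln, which encodes myoregulin, another small SERCA inhibitor, rose by 1.94 ± 0.132 from 3 to 7 DPI (limma, adjusted p = 1.01e-23), from a median of 73 to 274 TPM, with control muscle at 117 to 178 TPM. Against contralateral muscle it was lower by 1.41 at 3 DPI (limma, adjusted p = 1.37e-11) and differed by 0.24 at 7 DPI (adjusted p = 0.181), not called. With size factors these values were -2.09, called, and -0.67, not called. Sypl2, which encodes a triad junction protein, rose by 1.61 and Stac3, an adaptor of the L-type channel, by 1.25 over the same step. Jph2, Camk2a and Jph1 rose by 1.24, 1.05 and 1.03 from 7 to 14 DPI. None of the 55 was called for graft, for running or in contralateral muscle (limma, 0 genes in each).

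The genes whose pattern was most like that of Sln were named by Pearson correlation of log2(TPM + 1). Over all 114 muscles these were Cdkn1a (0.984), a cyclin-dependent kinase inhibitor, Ankrd1 (0.973), a muscle ankyrin repeat gene, Dclk1 (0.973), Tmem158 (0.971) and Erbb2 (0.968). These muscles hold injured and uninjured muscle together, which any gene raised by injury would share. Over the 76 injured muscles alone they were Cdkn1a (0.894), Creld1 (0.873), Faah (0.866), Chrna1 (0.866), the acetylcholine receptor alpha subunit, and Tmem38b (0.856), a channel of the reticulum membrane. Within injured muscle the correlation of Sln with the other 6 genes was highest for Atp2a2, at 0.506, and Casq2, at 0.466, and was -0.00766 for Atp2a1.

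The other genes had like patterns of their own. Atp2a1 was most like Pgm1 (0.993), Pygm (0.993) and Pfkm (0.992), which act in glycogen breakdown and glycolysis. Casq1 was most like Myl1 (0.990), Mylpf (0.988) and Eno3 (0.981), and Pvalb was most like Myl1 (0.973), Cox8b (0.970) and Fxyd1 (0.966), Myl1 and Mylpf being fast myosin light chains. Casq2 was most like Maged2 (0.963), Cdk14 (0.959) and Fndc3c1 (0.958), and Atp2a2 was most like Tjp1 (0.875), Panx1 (0.868) and Daam1 (0.863). Pln was most like Myh11 (0.822), the smooth muscle myosin, Pcp4l1 (0.814) and Mrgprh (0.808).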

How the data were processed

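RNA-Seq libraries of rat TA muscle were prepared by the authors with the TruSeq protocol and pseudo-aligned with kallisto to the GenBank-annotated rat genome. The deposited table holds TPM per gene symbol, and 1 incomplete row was left out. Libraries with fewer than 7000 symbols above 1 TPM (13) and those without a consistent group in the labels (9) were not used, and libraries of 1 muscle were averaged. Members and gene lists were chosen with earlier results of these data known. Tests used limma 3.58.1 (R 4.3.3) on log2(TPM + 1), with 1 model of 31 groups, 83 residual degrees of freedom, an intensity trend and 11328 genes with a group mean above 1 TPM. TPM allow no count model here, so limma stands in for the count test the authors used. The method was tested on simulated data.

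Named were all members, at most the 3 highest and 3 lowest called genes of the wider list per comparison, and the genes most like each member. The cardiac markers named beside Casq2 were chosen after their values were seen. Both muscles of a rat are paired: in 34 rats their residuals correlated at 0.0944 on average (-0.0679 to 0.358, 15 pairs above 0.1), against -0.00272 between rats, and the main model has no block. Replicates are separate rats, except that the 4 control muscles come from 2 rats. Alternatives were a pseudocount of 0.1 TPM, no filter, size factors, a rat block, separate libraries, all libraries, subsets of groups and leaving out each rat.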

Additional observations from a re-analysis of the deposited data

Results flagged for a closer look

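The 7 genes were searched in 112 combinations of gene and group (4 to 8 muscles) for a single muscle far from the others, by the gap to its neighbour over the range, and 11 were found. Chance alone gives about 1 in 20 such groups.

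For Sln, the highest of 8 grafted, non-running muscles at 7 DPI was at 7895 TPM (others 3690.0 to 5063) and the highest of 4 running, non-repaired muscles at 14 DPI at 9783 TPM (others 3578 to 4478). For Pln at 14 DPI, the highest grafted, non-running muscle was at 6.03 TPM (others 3.49 to 3.76) and the highest running, non-repaired muscle at 5.25 TPM (others 3.70 to 3.74).

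1 running, non-repaired muscle of 3 DPI was high both in Atp2a1, at 5100.3 TPM (others 1466 to 2495), and in Casq1, at 1185 TPM (others 278 to 533). 1 muscle of that arm at 7 DPI was low both in Atp2a1, at 2088 TPM (others 4995 to 5541), and in Casq2, at 94.5 TPM (others 186 to 194). In non-repaired, non-running muscle, the lowest Atp2a1 at 28 DPI was 8727 TPM (others 11565 to 12041), the highest Casq1 at 28 DPI was 3773 TPM (others 2876 to 2990.3), and the highest Casq1 at 7 DPI was 2611 TPM (others 1121 to 1758).

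The injury difference changed between days for 4 genes in a test added after the data were seen. The injury difference at 14 DPI less that at 3 DPI was 1.98 for Atp2a1, 1.92 for Casq1, 2.93 for Pvalb and 2.94 for Sln (limma, adjusted p = 7.63e-11, 5.11e-10, 4.63e-16 and 2.90e-11). The running difference of Sln at 28 DPI less its mean at 3, 7 and 14 DPI, averaged over repair, was -1.69, a description since it holds the arm that chose Sln. In grafted rats alone it was -1.70 and not called (limma, adjusted p = 0.498).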

How the results depend on the processing

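With size factors 5 of the 7 genes, not 3, were called between injured and contralateral muscle at 14 DPI, Atp2a1, Casq1 and Pvalb entering and Atp2a2 leaving. For Sln and running the values averaged over repair hold the arm that chose it and are descriptions. The count of 1 at 28 DPI, which was Sln, became 0 with the low-complexity libraries kept (-1.67, adjusted p = 0.334), in a fit limited to the groups compared (-1.67, adjusted p = 0.381) and in grafted rats alone (-1.63, adjusted p = 0.156), and leaving out rats gave 0 to 1. The added comparison of running at 28 DPI against earlier days likewise gave 0 with the low-complexity libraries kept (-1.59) and in grafted rats alone (-1.70), and 0 to 1 when rats were left out, the adjusted p rising above the threshold without the non-running rat at 8374 TPM (-1.49, adjusted p = 0.0620) or the running rats at 684 TPM (-1.40, adjusted p = 0.192) or 878 TPM (-1.48, adjusted p = 0.157). With rat as a replicate block the running value of Sln was -1.67, and the block changed no call of the 7 genes in any comparison. Counts among the 7 genes did not change by more than 1.5 times under the pseudocount of 0.1 TPM, without the filter or with each library as its own sample, and none of the 7 that was called changed direction under any alternative. The size factors moved 53 of the 56 described differences of the non-repaired, non-running arm by more than their SD. For the wider list size factors gave 19, not 12, calls at 14 DPI, 8, not 4, at 28 DPI, 15, not 4, from 7 to 14 DPI and 1, not 2, from 14 to 28 DPI. Over all genes, the pseudocount of 0.1 TPM gave 4363, not 2891, calls for injury at 14 DPI, 3631, not 2160, at 28 DPI, 1786, not 1174, from 7 to 14 DPI, 641, not 312, from 14 to 28 DPI and 152, not 47, in contralateral muscle. Size factors gave 719, not 1174, from 7 to 14 DPI, 30, not 47, in contralateral muscle and 15, not 25, for the added running test. For running at 28 DPI 8, not 35, genes were called with the low-complexity libraries kept and 0 in the limited fit and in grafted rats alone, and the added running test gave 0, 12 and 0, not 25. Contralateral muscle gave 22 calls with the low-complexity libraries kept. The graft comparisons and running at 3 DPI called at most 4 genes, and 0 to 15 under the alternatives. Depth is unknown, and group sizes of 2 to 8 limit the precision.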
